A study of Saccharomyces cerevisiae with 22 samples.

Results

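The genes described are HXT1 to HXT7, which encode the main hexose transporters of budding yeast, SNF3 and RGT2, which encode its glucose sensors, and MTH1, which encodes a repressor acting below those sensors. They were taken by name, and 10 of 10 were found among the 6242 genes of the deposited table. RNA of Saccharomyces cerevisiae was measured on 22 two-colour arrays, each setting a culture's RNA in Cy5 against Cy3-labelled RNA pooled from glucose and galactose cultures. The cultures were 3 chemostats, continuous cultures fed fresh medium at a fixed rate, each sampled at steady state in galactose, later in glucose and then at steady state in glucose. The 3AT40mM chemostat, with 40 mM 3AT (3-amino-1,2,4-triazole, which competes with the substrate of His3 and so blocks histidine synthesis), has 2 arrays in galactose, 5 from glucose ahead of steady state and 1 from the glucose steady state. The no3AT chemostat, without the inhibitor, has 2, 4 and 2 arrays at those stages, and no3AT2, a second chemostat without it, has 1, 2 and 3. Per the labels, arrays of no3AT2 carry polyA RNA and the other arrays total RNA, so RNA type and chemostat cannot be told apart. The labels name no strain; in the study the cells carried HIS3 under a galactose-responsive promoter, in all 3 chemostats.

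Yeast takes up glucose by facilitated diffusion through Hxt proteins that differ in affinity, and it changes which of them it makes with the glucose around it. Glucose bound at Snf3 or Rgt2 leads to the breakdown of Mth1 and its relative Std1, which releases HXT promoters from the repressor Rgt1. At high glucose the repressor Mig1 also shuts off the genes of high-affinity carriers. Galactose enters mainly through another carrier, Gal2.

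The quantity given throughout is the log ratio of the culture's RNA to the pool, taken to be log2, after each array's median was subtracted. A level is that ratio, and a change is a level minus the level in the same chemostat's galactose arrays. The 2 glucose arrays with the lowest labelled hours in a chemostat are called early glucose. The sample labels give no hour of the switch, so the time already spent in glucose is unknown and may differ between chemostats. A gene passed a test when its Benjamini-Hochberg adjusted p over the 4772 genes tested was under 0.05 in limma, a linear model with moderated variances. All 10 genes were among those 4772, and they lacked 3 of 220 values.

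Before the genes are described, the switch itself was checked on genes of galactose use. GAL7, whose enzyme converts galactose 1-phosphate, fell by 2.54 on the log2 scale in early glucose (SE 0.34, adjusted p = 0.00866) and by 1.57 at glucose steady state (SE 0.34, adjusted p = 0.00805). GAL1, the galactokinase gene, fell by 1.70 in early glucose (SE 0.40, adjusted p = 0.0219), and its steady state change was -1.18 (SE 0.40, adjusted p = 0.0576). On neighbour-corrected values, which have the median of nearby rows of the table removed, these calls were lost but the changes stayed similar in size. GAL7 changed there by -2.68 in early glucose (adjusted p = 0.103) and by -1.44 at steady state (adjusted p = 0.117). GAL1 changed by -1.74 in early glucose (adjusted p = 0.175). Of all genes, 0.0% passed on those values in early glucose and 0.482% at steady state. GAL7 passed in 22 of 27 alternatives in early glucose and 21 of 27 at steady state, and GAL1 in 19 of 28 in early glucose. At steady state the 1 array of 3AT40mM stood close to its galactose arrays, with GAL1 at -0.94, against -1.23 and -1.06 in galactose. GAL7 changed by -0.38 there, by -2.14 in no3AT and by -2.21 in no3AT2. In no3AT the 526 h array also had GAL1 within the range of its galactose arrays, at -0.53 against -1.17 and -0.45. On the 507 h array it was -3.68. The galactose arrays also differed between chemostats, with GAL1 at 1.91 in no3AT2 and at -1.23 to -0.45 in the others. In the early glucose of no3AT2 GAL1 was at -0.01 and 0.25, above every galactose array of the other chemostats. The 3AT40mM array at 552 h, the first in glucose there, also stood apart: 5 of its 5987 genes (0.0835%) were over 2-fold from the galactose mean. GAL7 read -0.81 on it, against -0.91 and -0.80 on that chemostat's galactose arrays. Across genes, glucose and galactose arrays correlated at -0.44 to 0.87 (85 pairs), and arrays of one group at -0.25 to 0.80 (23 pairs). Of 231 pairs of arrays, 10 correlated below -0.3, each a galactose array with a glucose array. Ratios were kept as deposited, because the labels give the same dyes on all 22 arrays.

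The first question was whether these genes changed in all 3 chemostats after the switch. In early glucose 0 of 10 passed the test, where 6.96% of all genes tested did. At glucose steady state again 0 of 10 passed, against a background of 17.5%. Between early glucose and glucose steady state 0 of 10 passed, with a background of 0.0%. At an unadjusted p under 0.05 in limma the numbers were 1, 1 and 0 of the 10 genes, against 23.3%, 34.5% and 7.15% of all genes. Both glucose stages share the galactose arrays, so their changes are not independent of each other.

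Over the 3 chemostats most of the changes were above 0. In early glucose 8 of the 10 changes were above 0, with a median of 0.25, against 51.8% of all genes and a median of 0.03. At glucose steady state 7 of 10 were above 0, with a median of 0.31, against 51.3% of all genes and a median of 0.03. Within chemostats, 5 of 10 were above 0 in early glucose in 3AT40mM (median 0.02), 6 of 10 in no3AT (0.16) and 8 of 10 in no3AT2 (0.50), and at steady state 7 of 10 (0.27), 8 of 10 (0.20) and 9 of 10 (0.37). Only SNF3 and RGT2 were below 0 in early glucose, and only HXT3, RGT2 and MTH1 at glucose steady state. Of 167 changes on single glucose arrays, 23 were over 2-fold (13.8%), 17 upward and 6 downward, while 20.5% of all genes' changes were that large.

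**Figure D1:**
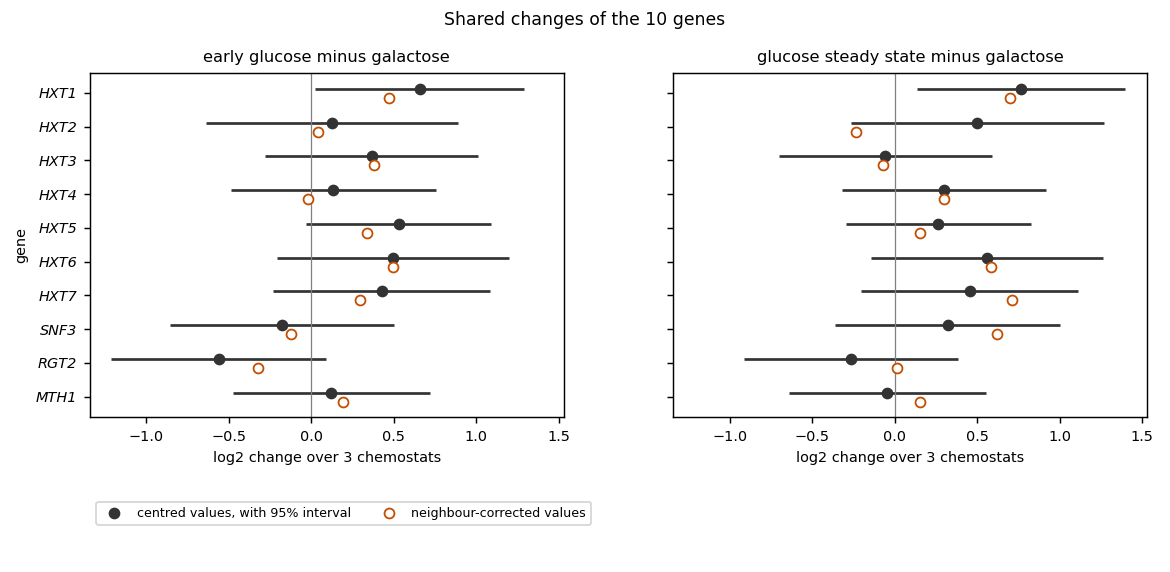
Change of each of the 10 genes over 3 chemostats on the log2 scale, in early glucose (left) and at glucose steady state (right), each minus galactose; filled points are limma estimates with 95% intervals and open points the same estimate on neighbour-corrected values. The HXT1 interval lies above 0 in both panels, and those of the other 9 genes include 0.

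HXT1 (YHR094C) encodes a low-affinity carrier that is made when glucose is abundant, and it had the largest shared change of the 10 at both stages. In 3AT40mM its level was -1.54 and -1.70 in galactose, then -1.24, -0.40, -0.62, -0.87 and -0.84 from 552 to 878 h in glucose, and -0.43 at glucose steady state. In no3AT it was -1.14 and -1.36 in galactose, then -0.36, 0.15, -0.47 and -0.18 from 344 to 478 h, and -0.53 and -0.34 at glucose steady state. In no3AT2 it was -1.15 in galactose, -1.21 and -1.04 in early glucose, and -0.93, -0.66 and -0.96 at glucose steady state. The glucose arrays thus lay mostly above the galactose arrays: 15 of 17 were higher than every galactose array. The other 2 were the first glucose arrays of 3AT40mM and no3AT2. How many of all genes reach such a count was not computed, here or for the members below.

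On 16 of 17 glucose arrays HXT1 was above its own chemostat's galactose mean, which 6.64% of 4968 genes were on all but at most 1 array. Over the 3 chemostats its level averaged -0.68 ± 0.52 in early glucose and -0.57 ± 0.24 at glucose steady state, against -1.34 ± 0.25 in galactose (SD, n = 3). The early change was 0.66 (SE 0.30, adjusted p = 0.194) and the steady state change 0.77 (SE 0.30, 95% interval 0.13 to 1.40, adjusted p = 0.0854), so neither passed. The steady state change did pass after quantile normalization (1.07, adjusted p = 0.0112, 25.4% of all genes called), with arrays as units (0.80, adjusted p = 0.0267, 18.5%), and without chemostat no3AT2 (1.00, adjusted p = 0.0347, 19.6%). The early change passed after quantile normalization only (0.98, adjusted p = 0.0499, 4.44%).

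The estimated HXT1 change was lowest in no3AT2 at both stages, a difference that was not tested. At glucose steady state the change was 1.19 (SE 0.46) in 3AT40mM, 0.82 (SE 0.38) in no3AT and 0.29 (SE 0.44) in no3AT2. In early glucose it was 0.80 (SE 0.38), 1.15 (SE 0.38) and 0.02 (SE 0.46) in those chemostats. The steady state value of 3AT40mM rests on 1 array, on which GAL1 stood near its galactose level. Both values of no3AT2 rest on 1 galactose array. The adjusted p was 0.255 or above at steady state and 0.331 or above in early glucose. The culture with 3AT did not differ from the mean of the other two beyond the threshold, with differences of 0.63 (SE 0.54) at steady state and 0.22 (SE 0.48) in early glucose. With the first glucose array alone as early glucose, the steady state change in 3AT40mM kept its value of 1.19 and passed (adjusted p = 0.0458, 8.07% of all genes called). Without the 552 h array the early change in 3AT40mM was 1.22 (adjusted p = 0.0287), in a setting where 28.0% of all genes passed and early glucose rested on the array at 574 h.

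**Figure D2:**
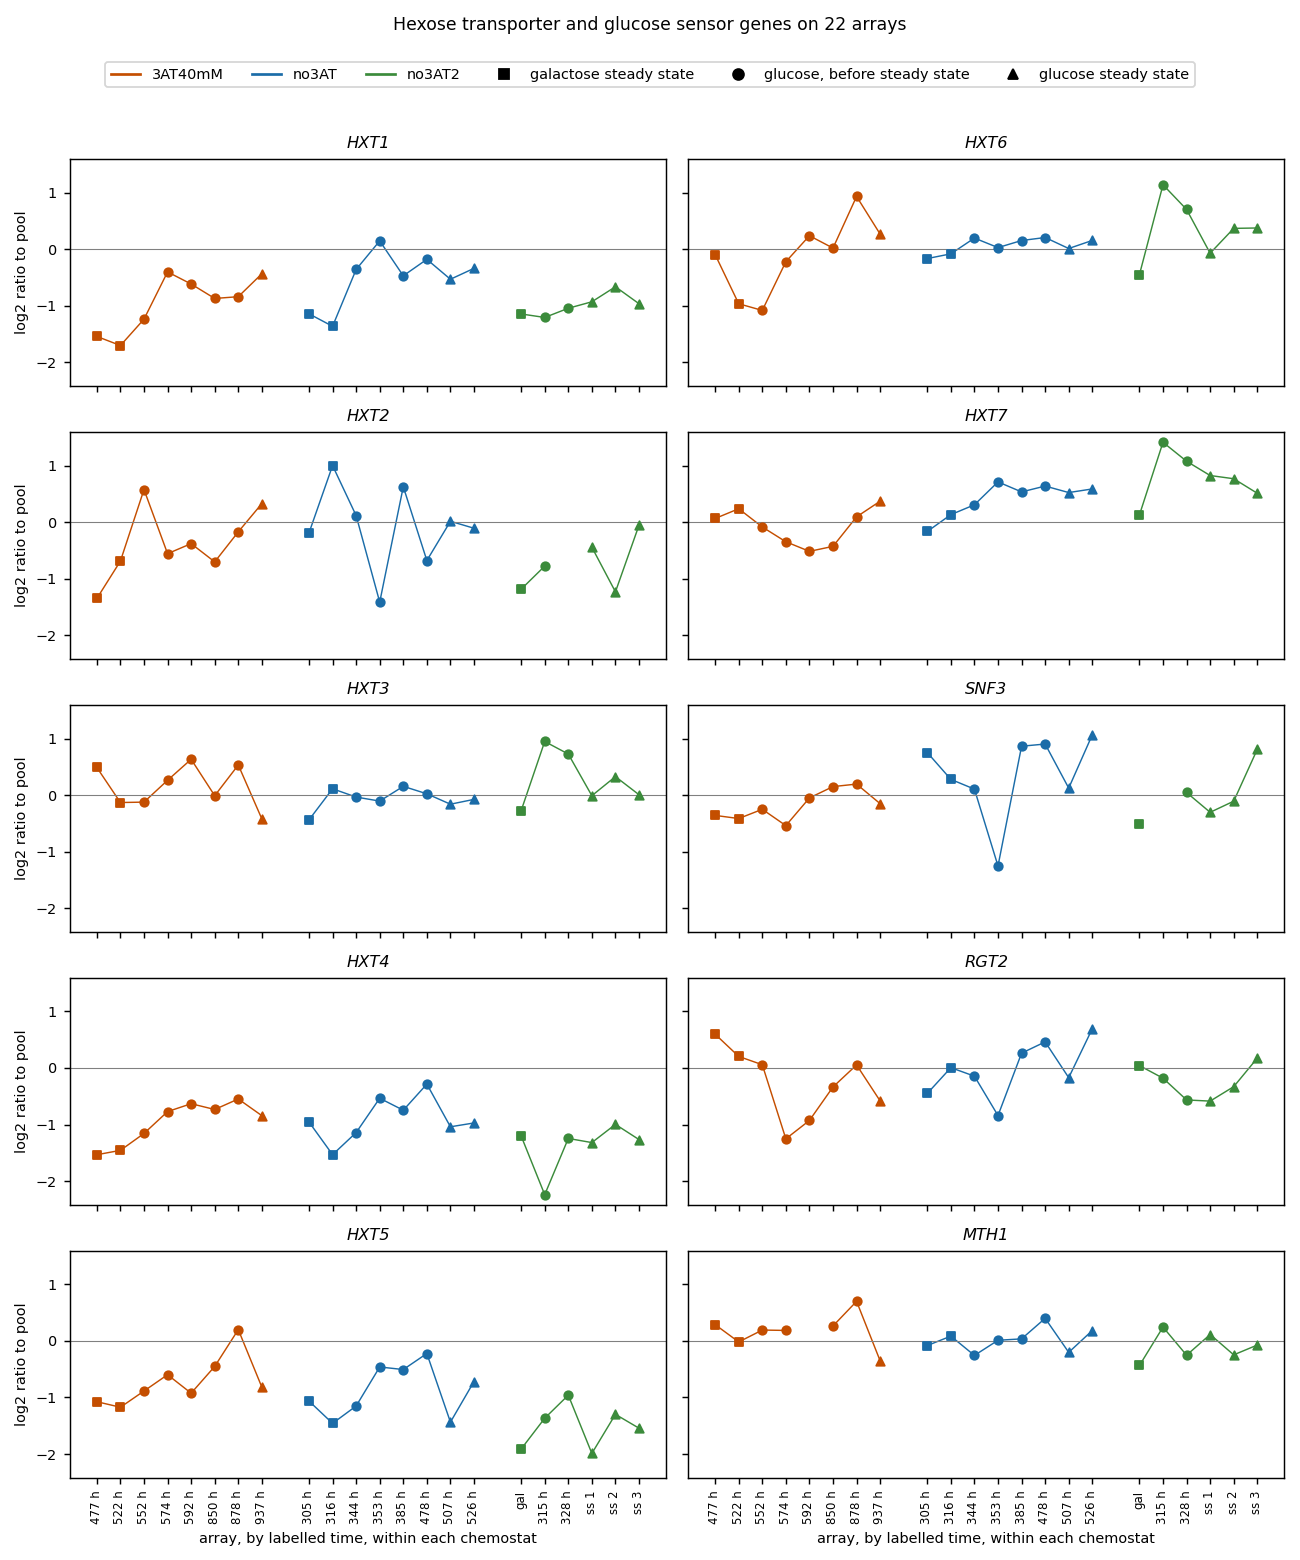
Level of each gene on 22 arrays as the centred log2 ratio to the reference pool, in order of labelled time within each chemostat. The galactose and glucose steady state arrays of no3AT2 carry no labelled hours and are placed first and last there. Squares are galactose steady state, circles glucose before steady state, triangles glucose steady state, and a missing point is a missing value. HXT1, HXT4 and HXT5 run below 0, HXT1 by the least in no3AT glucose, and HXT3, HXT6 and HXT7 peak at 315 h in no3AT2.

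HXT3 (YDR345C) encodes the other low-affinity carrier, which glucose induces over a wide range of concentrations. Its level stayed near the pool, with a median of 0.01 on glucose arrays (range -0.42 to 0.95) and -0.13 on galactose arrays (range -0.44 to 0.49). The ranges overlapped widely, and 4 of 17 glucose arrays were above every galactose array. Its shared change was 0.37 (SE 0.30, adjusted p = 0.493) in early glucose and -0.06 (SE 0.30, adjusted p = 0.906, 95% interval -0.70 to 0.59) at glucose steady state. The highest levels were on the early no3AT2 arrays, at 0.95 and 0.73, against -0.28 in that chemostat's galactose.

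HXT6 (YDR343C) and HXT7 (YDR342C) encode high-affinity carriers that are close to identical in sequence and lie side by side on chromosome IV, followed by HXT3. HXT6 was above its own galactose mean on 16 of 17 glucose arrays, the exception being 3AT40mM at 552 h. Its level had a median of 0.20 on glucose arrays (range -1.08 to 1.14) and -0.17 on galactose arrays (range -0.96 to -0.08). Its shared change was 0.50 (SE 0.33, adjusted p = 0.378) in early glucose and 0.56 (SE 0.33, adjusted p = 0.24) at glucose steady state. HXT7 had a median level of 0.52 on glucose arrays (range -0.52 to 1.41) and 0.13 on galactose arrays (range -0.17 to 0.24). Its shared change was 0.43 (SE 0.31, adjusted p = 0.423) in early glucose and 0.45 (SE 0.31, adjusted p = 0.308) at glucose steady state.

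HXT7 split by culture in early and later glucose. In 3AT40mM it read -0.09, -0.35, -0.52, -0.43 and 0.09 from 552 to 878 h, against 0.06 and 0.24 in galactose, and it was 0.37 at glucose steady state. In no3AT all 6 glucose arrays, at 0.31 to 0.71, were above both galactose arrays, at -0.17 and 0.13. In no3AT2 it was 1.41 and 1.08 in early glucose and 0.51 to 0.82 at glucose steady state, against 0.13 in galactose. The early change was -0.37 in 3AT40mM, 0.53 in no3AT and 1.12 in no3AT2, and on neighbour-corrected values it was -0.24, 0.09 and 1.04. In no3AT the 353 h array was then below both galactose arrays, at -0.30 against -0.06 and -0.18. The difference of 3AT40mM from the mean of the other chemostats was -1.19 (SE 0.45, unadjusted p = 0.0166, adjusted p = 0.703), which did not pass, and the background there was 0.0%, with 6.58% of genes at an unadjusted p under 0.05. For the level in galactose and the change at glucose steady state, 0 of 10 genes likewise differed between 3AT40mM and that mean, with backgrounds of 0.0% and 0.0%, and with 2.68% and 2.16% of genes at an unadjusted p under 0.05. A single chemostat held 3AT, so inhibitor and chemostat cannot be told apart. The SE and p of these differences reflect scatter between arrays of a culture, not between cultures.

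In the early glucose of no3AT2 these neighbours on chromosome IV were high together. On neighbour-corrected values HXT6 changed by 1.17 and 0.79 at 315 and 328 h, HXT7 by 1.09 and 0.99, and HXT3 by 0.85 and 0.73. At 315 h 44.4% of all genes were over 2-fold from galactose on centred values. HXT6 was at 1.14 and 0.70, against -0.45 in galactose, a change of 1.37 (SE 0.49, adjusted p = 0.122). The change of HXT7 was 1.12 (SE 0.44, adjusted p = 0.141) and that of HXT3 1.11 (SE 0.46, adjusted p = 0.156). Of the 10 genes, 0 passed in this comparison, which rests on 1 galactose array, against a background of 0.524%, and these 3 were the ones with an unadjusted p under 0.05, as 24.0% of all genes had. With the 315 h array alone as early glucose, HXT6 (1.59, adjusted p = 0.0228) and HXT7 (1.29, adjusted p = 0.0274) passed, in a setting where 28.6% of all genes did. HXT6 also passed without the 3AT40mM array at 552 h (adjusted p = 0.0490, 10.6%) or 574 h (adjusted p = 0.0489, 10.7%), where its change stayed 1.37 and the pooled spread differed.

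**Figure D3:**
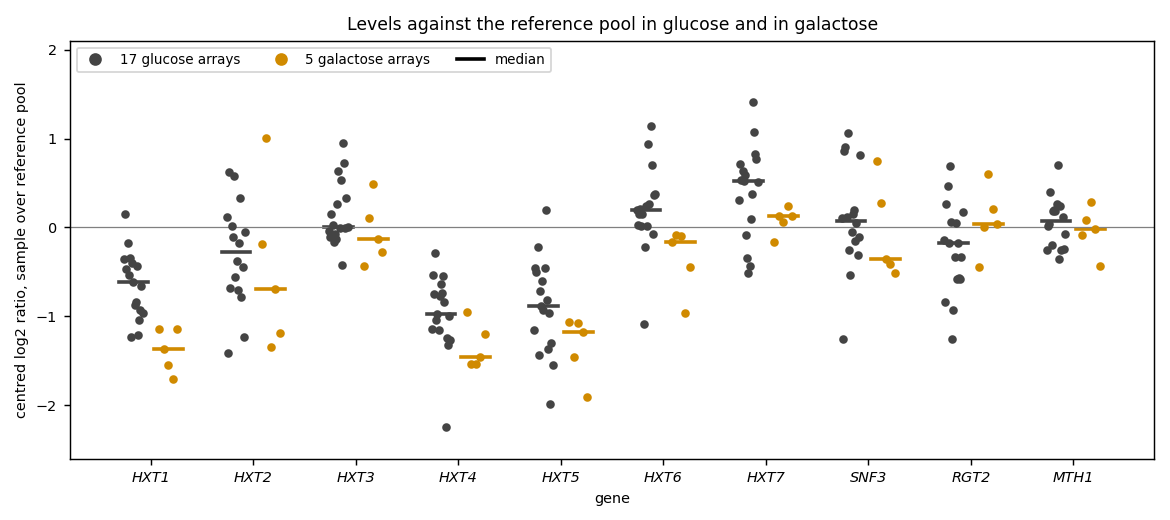
Centred log2 ratio to the reference pool for each gene on 17 glucose arrays (left of each pair) and 5 galactose arrays (right), with missing values left out and a bar at the median. HXT1, HXT4 and HXT5 lie below 0 on nearly all arrays of both sugars. For HXT1 and for HXT6, 15 of 17 glucose arrays lie above every galactose array, a count that was not taken over all genes.

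HXT1, HXT4 and HXT5 lie close together on chromosome VIII, and each was below the pool nearly everywhere. HXT4 was below 0 on 22 of 22 arrays, and HXT1 and HXT5 on 21 of 22. Among 5199 genes with a value on at least 18 arrays, 0.789% were below the pool on all but at most 1 array. The exceptions were HXT1 at 353 h in no3AT, at 0.15, and HXT5 at 878 h in 3AT40mM, at 0.20. Since the pool held RNA of both sugars, a level below 0 in both is a statement about the pool as well as the cultures, and what the pool held of these RNAs was not measured.

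HXT4 (YHR092C) encodes a carrier induced by low glucose and shut off by high glucose. Its level ranged from -2.24 to -0.28 (median -0.97) on glucose arrays and from -1.53 to -0.96 (median -1.46) on galactose arrays. The groups overlapped, with 8 of 17 glucose arrays above every galactose array and 1 below. In no3AT2 it was -2.24 and -1.25 in early glucose, against -1.20 in galactose, and 4 of its 5 glucose arrays were below that galactose array. In 3AT40mM and in no3AT all 6 glucose arrays were above the chemostat's own galactose mean. Its shared change was 0.13 (SE 0.29, adjusted p = 0.823) in early glucose and 0.30 (SE 0.29, adjusted p = 0.482) at glucose steady state.

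HXT5 (YHR096C) encodes a carrier of intermediate affinity that is known for being made when growth is slow, whatever the glucose level. Its level ranged from -1.99 to 0.20 (median -0.89) on glucose arrays and from -1.91 to -1.06 (median -1.17) on galactose arrays. It was above its own galactose mean on 15 of 17 glucose arrays, and 11 of 17 were above every galactose array. In 3AT40mM it was highest at 878 h, with -0.89, -0.60, -0.92, -0.45 and 0.20 from 552 to 878 h, against -1.08 and -1.17 in galactose, and was -0.82 at glucose steady state. Its shared change was 0.53 (SE 0.26, adjusted p = 0.237) in early glucose and 0.26 (SE 0.26, adjusted p = 0.494) at glucose steady state.

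HXT2 (YMR011W) encodes a carrier of high affinity that is induced by low glucose, and it was the most scattered of the 10 genes, with an SD of 0.66 over 21 arrays. The 2 galactose arrays of no3AT alone were at -0.19 and 1.00, and its glucose arrays ran from -1.41 at 353 h to 0.63 at 385 h. Its early change was 1.03 (SE 0.55, adjusted p = 0.467) in 3AT40mM and -1.05 (SE 0.55, adjusted p = 0.461) in no3AT, opposite in sign and each short of the threshold. Without the 552 h array, where HXT2 was 1.60 above its galactose mean, the change in 3AT40mM was 0.46 (adjusted p = 0.593), and on neighbour-corrected values the change on the 574 h array was -0.17. Over the 3 chemostats it was 0.13 (SE 0.36, adjusted p = 0.866) in early glucose and 0.50 (SE 0.36, adjusted p = 0.331) at glucose steady state.

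SNF3 (YDL194W) encodes the sensor for low glucose. Its level ranged from -1.25 to 1.07 (median 0.08) on glucose arrays and from -0.52 to 0.75 (median -0.36) on galactose arrays, so the sugars overlapped almost fully. The lowest value was at 353 h in no3AT, at -1.25, while the arrays at 344 and 385 h of that culture read 0.10 and 0.86. The early change in no3AT was -1.09 (SE 0.49, adjusted p = 0.432), and the shared change was -0.18 (SE 0.32, adjusted p = 0.777) in early glucose and 0.32 (SE 0.32, adjusted p = 0.492) at glucose steady state.

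RGT2 (YDL138W) encodes the sensor for high glucose, and it was the gene with the lowest shared change. In 3AT40mM its level was 0.60 and 0.20 in galactose, then 0.06, -1.25, -0.93, -0.34 and 0.05 from 552 to 878 h, and -0.58 at glucose steady state. All 6 glucose arrays of that culture were below both galactose arrays, and the lowest were at 574 and 592 h. Its early change there was -0.998 (SE 0.46, adjusted p = 0.467), and without the 552 h array it was -1.65 (adjusted p = 0.0173), where 28.0% of all genes passed. In no3AT it was -0.14 and -0.84 in early glucose and -0.17 and 0.69 at steady state, against -0.45 and 0.01 in galactose. The shared change was -0.56 (SE 0.30, adjusted p = 0.278) in early glucose and -0.26 (SE 0.30, adjusted p = 0.556) at glucose steady state.

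MTH1 (YDR277C), whose protein holds HXT genes off with Rgt1 until glucose is sensed, varied least, with an SD of 0.28 over 21 arrays. Its level ranged from -0.35 to 0.70 (median 0.07) on glucose arrays and from -0.43 to 0.29 (median -0.02) on galactose arrays, and none of its 16 changes reached 2-fold. Its shared change was 0.12 (SE 0.28, 95% interval -0.48 to 0.72) in early glucose and -0.04 (SE 0.28, 95% interval -0.64 to 0.55) at glucose steady state. The highest level, 0.70, was at 878 h in 3AT40mM, where HXT5 (0.20) had its highest level and HXT6 (0.93) was high too.

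Within single chemostats 0 of 10 genes passed in the remaining comparisons as well. The backgrounds were 0.0% in early glucose and 0.0838% at steady state in no3AT, 0.0% and 0.0% in 3AT40mM, and 1.42% at steady state in no3AT2. At an unadjusted p under 0.05 there were 2 of the 10 genes in early glucose and 1 at steady state in 3AT40mM, 2 and 1 in no3AT, and 0 at steady state in no3AT2. Of all genes, 9.83% and 15.9% did so in 3AT40mM, 11.3% and 15.0% in no3AT and 15.7% at steady state in no3AT2. Such p-values reflect how far arrays of one chemostat and stage scatter, pooled over the 3 chemostats, and not the spread between cultures. Part of that scatter may be technical. In early glucose it also holds the change between the 2 labelled times. In 3AT40mM, for instance, GAL7 was -0.81 at 552 h and -4.87 at 574 h.

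The deposited values also depended on a gene's place in the table. For 92.3% of 5199 genes, the level correlated above 0 over the arrays with the median level of the rows nearby, and the median correlation was 0.57. For the 10 genes that correlation ran from 0.18 for HXT7 to 0.77 for RGT2. Changes were therefore also computed on neighbour-corrected values, from which the median of 20 nearby rows was subtracted, 10 before and 10 after the gene, taking every other row of the table. On these values HXT1 changed by 0.47 (adjusted p = 0.398) in early glucose and 0.70 (adjusted p = 0.18) at glucose steady state. HXT7 was at 0.71 (adjusted p = 0.224) and HXT2 at -0.23 (adjusted p = 0.741) at steady state. Again 0 of 10 passed, against backgrounds of 0.0% in early glucose and 0.482% at steady state. HXT1, HXT4 and HXT5 were below 0 on 22, 22 and 21 of 22 arrays on these values too.

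The genes that are near neighbours on a chromosome form 6 pairs, 1 to 4 rows apart in the table. HXT1 and HXT4 correlated at 0.70 over 22 arrays (0.63 neighbour-corrected), HXT4 and HXT5 at 0.68 (0.59), HXT3 and HXT6 at 0.62 (0.54) HXT6 and HXT7 at 0.49 (0.33), HXT1 and HXT5 at 0.44 (0.29) and HXT3 and HXT7 at 0.26 (-0.06). Pairs far apart reached similar values, with 0.59 for HXT5 and MTH1 (0.48) and 0.52 for SNF3 and RGT2 (0.34). The lowest correlation among the 10 genes was -0.38, between HXT4 and HXT7. These are descriptions, since the arrays share cultures, a reference and the dependence on place in the table.

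Among all genes, the one most like HXT1 over arrays was FLC1 (r = 0.88, 20 arrays), the one most like HXT4 was HSP82 (r = 0.89, 22 arrays), and the one most like HXT7 was YGL199C (r = 0.95, 22 arrays). SNF3 was most like KIP1 (r = 0.90, 21 arrays), RGT2 most like UBX3 (r = 0.85, 22 arrays) and HXT6 most like RSM18 (r = 0.84, 22 arrays). HXT5 was most like SSA3 (r = 0.77, 19 arrays), HXT2 most like RPC37 (r = 0.80, 20 arrays), HXT3 most like CST6 (r = 0.75, 22 arrays) and MTH1 most like MRX1 (r = 0.83, 20 arrays). On neighbour-corrected values the likest gene was another for all 10. For HXT1, the one member for which 3 are named, these were PFK1 (r = 0.84), AGP1 (r = 0.81) and RGT1 (r = 0.80), each over 22 arrays. On centred values RGT1 correlated with HXT1 at 0.73 and was not among its 3 most alike. Each likest gene was picked as the highest of 4997 to 5198 genes, so its r is a maximum.

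Other sugar transporters were compared as a list of 15 genes, of which 14 could be tested. In early glucose 0 rose and 2 fell, where 0.231% of all genes rose and 6.73% fell. These were HXT9 (-1.46, SE 0.33, adjusted p = 0.0188), a hexose carrier, and MAL31 (-1.18, SE 0.34, adjusted p = 0.0489), a maltose carrier. At glucose steady state 2 rose and 2 fell, against 4.53% and 13.0% of all genes. Those that rose were MPH3 (1.62, SE 0.32, adjusted p = 0.00411), a maltose carrier, and HXT16 (1.31, SE 0.37, adjusted p = 0.0284). MAL31 (-1.04, SE 0.34, adjusted p = 0.0468) and HXT12 (-0.96, SE 0.28, adjusted p = 0.0295), listed as a pseudogene in the R64 annotation, fell. The list's median change was 0.02 in early glucose and 0.12 at steady state, against 0.03 and 0.03 over all genes. MPH3 passed in 28 of 30 alternatives, HXT16 in 22 of 30, HXT12 in 18 of 30, HXT9 in 16 of 28, and MAL31 in 9 of 27 in early glucose and 11 of 27 at steady state. GAL2, the galactose carrier, was not tested, because it had no value in the early glucose of no3AT2.

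Several of these genes are close copies of each other, and in 3 of 5 such pairs the changes of the copies had opposite signs. HXT15 and HXT16 changed by -0.59 and 1.31 at glucose steady state, and MPH2 and MPH3 by -0.69 and 1.62. HXT9 changed by -0.97 and HXT11 by 0.75, and HXT13 and HXT17 by 0.31 and 0.28. Over 20 arrays the levels correlated at -0.75 for HXT9 and HXT11 (-0.52 neighbour-corrected), 0.12 for HXT15 and HXT16 (0.72) and 0.84 for HXT13 and HXT17 (0.50), and over 22 arrays at -0.28 for MPH2 and MPH3 (0.10). On neighbour-corrected values the steady state changes were 0.36 and 0.51 for HXT15 and HXT16, 0.16 and 0.81 for MPH2 and MPH3, and -0.20 and 0.18 for HXT9 and HXT11. HXT12 turned to 0.26, and none of the transporters above passed. Whether spots for such copies, HXT6 and HXT7 included, tell them apart cannot be told without the probe sequences, which were not used here, so their values are uncertain as values of 1 gene.

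**Figure D4:**
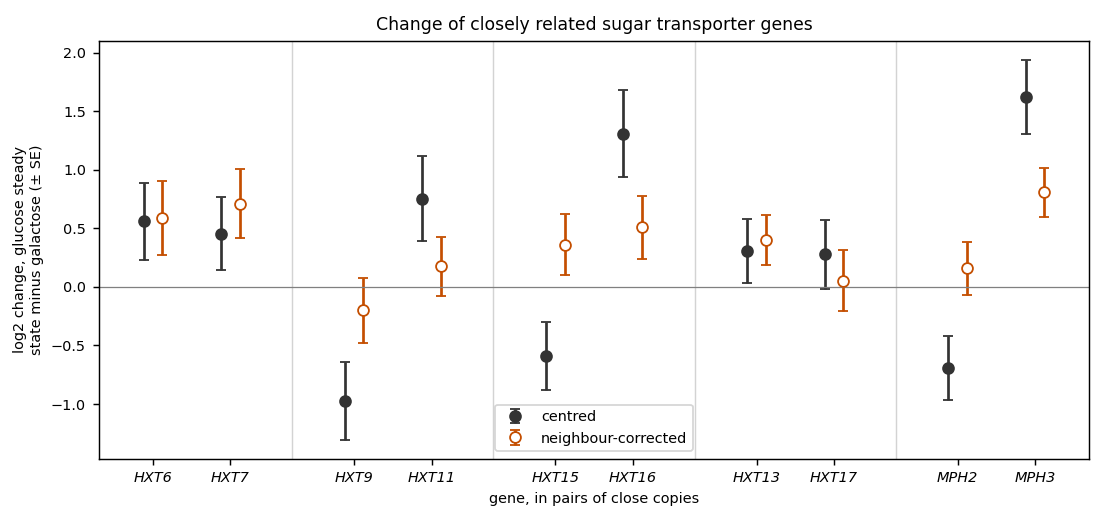
Change at glucose steady state relative to galactose over 3 chemostats, on the log2 scale with its SE, for 5 pairs of closely related sugar transporter genes chosen after their values were seen; filled points are centred values and open points neighbour-corrected ones. HXT9, HXT15 and MPH2 lie below 0 and their copies above 0 on centred values, and the gap is narrower in those pairs after the correction.

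Of 25 genes of glucose signalling and repression, 19 could be tested. In early glucose 0 rose and 2 fell, 2 of 19 passing where 6.96% of all genes did. These were NRG2 (-1.45, SE 0.28, adjusted p = 0.00907), a repressor of glucose-repressed genes, and REG1 (-1.23, SE 0.30, adjusted p = 0.0247), which directs the phosphatase Glc7 against the kinase Snf1. At glucose steady state 3 of 19 passed, against 17.5% of all genes. Both fell again, NRG2 by 1.58 (SE 0.28, adjusted p = 0.00325) and REG1 by 0.98 (SE 0.30, adjusted p = 0.0386). GRR1, part of the ubiquitin ligase through which Mth1 is broken down, rose by 0.94 (SE 0.29, adjusted p = 0.0387). RGT1 changed by 0.79 (SE 0.31, adjusted p = 0.0935) at steady state, short of the threshold. At steady state NRG2 passed in 27 of 28 alternatives, GRR1 in 17 of 30 and REG1 in 16 of 30. On neighbour-corrected values none of these genes passed, with changes of -0.99 for NRG2, -0.49 for REG1 and 0.75 for GRR1 at steady state.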

How the data were processed

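The authors deposited 1 table of signed ratios with 6281 rows and 1 column per array, and no intensities, so depth is unknown and the number of arrays limits the precision. Its values were taken as log2 ratios, per the labels, of Cy5 sample over Cy3 pool, as deposited; the log base, background correction and normalization are among the steps not given in the sources used, and another base would rescale every value. Of the rows, 5763 matched a gene of the R64 table and 518 did not; rows of 1 gene were averaged. Each array was centred on its median (-0.15 to 0.07).

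Testing used limma 3.58.1 (R 4.3.3) and took in genes measured on at least 80% of 17 arrays and in each combination of chemostat and stage. Shared changes came from 9 means with the chemostat as block (4 residual, 10.6 prior degrees of freedom), and changes within chemostats from the 17 arrays (8 and 11.5). P-values are two-sided. The members, lists and tests were chosen with earlier results of these data known. The text names the 10 members, GAL1 and GAL7, list genes that passed, the gene most like each member, the 3 genes most like HXT1 after neighbour correction and 5 pairs of close copies, the last chosen after their values were seen. The fits were also run on simulated data with independent noise. These held no chemostat effect and no dependence between nearby rows, so they could not check the fits under those features.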

Additional observations from a re-analysis of the deposited data

Results flagged for a closer look

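MTH1 at 878 h in 3AT40mM glucose, at a log2 level of 0.70, lay far from the other 3 values of its group: its gap to the nearest was 0.85 of the group's range. This was 1 of 20 groups of 4 or more arrays examined, and chance gives about 1 in 20.

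On every early glucose array, HXT2 was above the galactose mean in 3AT40mM (mean change 1.03) and below it in no3AT (mean change -1.05). In 3AT40mM the change was 1.60 at 552 h and 0.46 at 574 h, and the second was -0.17 on neighbour-corrected values, so the opposite movement did not hold there. HXT4 was above it in 3AT40mM (0.53) and in no3AT (0.41) but below it in no3AT2 (-0.54). HXT7 was below it in 3AT40mM (-0.37) and above it in no3AT (0.53) and in no3AT2 (1.12), although neighbour-corrected the no3AT array at 353 h was below its galactose arrays. Each chemostat has 2 such arrays, 5 of 36 comparisons between chemostats showed such opposite movement, and these differences between pairs of chemostats were not tested. The difference of 3AT40mM from the mean of the other chemostats was tested and did not pass for any of these 3 genes.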

How the results depend on the processing

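Of 1175 values of the 10 genes under alternatives, 1109 kept their direction and their side of the threshold, 11 passed where the reported value did not, and 55 changed sign. Some alternatives cannot move a value and change its p-value only. Leaving out an early array, for instance, leaves a shared steady state change as it was. The number of the 10 genes that passed was 0 in each comparison as reported. It was 1 (HXT1) after quantile normalization in early glucose, and 1 (HXT1) at glucose steady state after quantile normalization and with arrays as units. It was 1 (HXT1) at 3AT40mM glucose steady state and 2 (HXT6 and HXT7) in no3AT2 early glucose with the first glucose array alone as early. With an array or chemostat left out it ranged from 0 to 1 at shared glucose steady state (1 without chemostat no3AT2), from 0 to 2 in early 3AT40mM (2 without 552 h) and from 0 to 1 in early no3AT2.

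Neighbour correction turned HXT4 to -0.023 in early glucose, HXT12 to 0.26, HXT2 to -0.23, MTH1 to 0.16 and RGT2 to 0.014 at steady state, HXT2 to -0.27 between glucose stages, and HXT1 to -0.12 in early no3AT2. With the first glucose array alone as early, HXT4 was -0.20 in early glucose, HXT1 -0.062 in early no3AT2, and HXT2 -0.070, HXT7 -0.0023 and RGT2 -0.10 between glucose stages. With all glucose arrays before steady state as early, SNF3 was 0.16 in early glucose and HXT6 -0.16 between stages. Between stages, quantile normalization gave -0.011 for HXT2 and -0.007 for HXT4, and arrays as units -0.057 for HXT6 and -0.026 for HXT7. The cause of these changes was not tested.

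Leaving out an array or chemostat changed the sign of some changes, whose ranges were, in early glucose, HXT2 -0.32 to 0.72, HXT3 -0.0084 to 0.60, HXT4 -0.068 to 0.47, MTH1 -0.060 to 0.24 and SNF3 -0.55 to 0.28, and steady state HXT3 -0.35 to 0.21, MTH1 -0.25 to 0.18 and RGT2 -0.64 to 0.10. Between stages HXT1 ran from -0.065 to 0.33, HXT4 -0.023 to 0.34, HXT6 -0.36 to 0.44, HXT7 -0.25 to 0.32 and MTH1 -0.30 to 0.041, and HXT1 in early no3AT2 from -0.062 to 0.10. HXT1 stayed above 0 in all 30 alternatives at each shared stage, though some of these could not move its value. It ran from 0.41 to 0.98 in early glucose (adjusted p 0.0499 to 0.63). At steady state it ran from 0.56 to 1.07 (adjusted p 0.0112 to 0.53). A stage with a single array was assumed to vary like the others.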
